A study of Mus musculus with 7 samples.

Results

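The genes described here encode the core of the machinery that removes introns from pre-mRNA: the small nuclear ribonucleoprotein (snRNP) proteins named Snrp, the U2-associated SF3A and SF3B subunits, the U2AF splice-site factors, the serine/arginine-rich (SR) splicing factors named Srsf, and the heterogeneous nuclear ribonucleoproteins (hnRNPs). They were chosen by symbol alone, as probe sets whose platform annotation names exactly 1 gene with a symbol that starts with Srsf, Hnrnp, Snrp, Sf3a, Sf3b or U2af. Where a gene had several such probe sets, the probe set of highest mean log2 value over all arrays was used. This gave 50 genes of 22180 with a probe set of their own. Of the 50, 6 encode Sm core proteins, 3 other snRNP proteins, 9 SF3A or SF3B subunits, 3 U2AF subunits or relatives, 10 SR proteins and 19 hnRNPs. One of the last, Hnrnpa1l2-ps2, is named as a pseudogene. Another 11 rows name a gene of these families together with other genes, and were left out because their signal cannot be assigned. By limma, 0 of these 11 had an adjusted p under 0.05 and 1 had an unadjusted p under 0.05. That row names an Sm core gene with other genes, and its groups did not overlap. Its Ahr-KO minus WT log2 difference was -1.22. Of all 25335 tested probe sets, 4.21% had an unadjusted p under 0.05 by limma and 5.74% did not overlap.

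Values came from 7 Affymetrix arrays of hematopoietic stem cells (HSCs), the bone marrow cells that renew themselves and all blood lineages. The cells were taken at 8 weeks of age from C57BL/6J-background mice, 3 arrays from mice labelled Ahr knockout (Ahr-KO) and 4 from mice with wild-type Ahr (WT). Ahr encodes the aryl hydrocarbon receptor, a ligand-activated transcription factor. The cells of both genotypes were marrow depleted of lineage-positive cells and then sorted on SLAM-family surface markers. The labels give neither the deleted part of Ahr nor whether arrays came from separate mice or pools, so p-values measure only how far these arrays differ, which can be technical variation. In bulk RNA of this kind, fewer cells of a type and less RNA per cell cannot be told apart.

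Introns are removed by a complex that assembles anew on each one. Rings of Sm proteins are built around most spliceosomal small nuclear RNAs, and the U1 snRNP recognises the 5′ splice site. The U2AF heterodimer recognises the 3′ splice site and helps bring in the U2 snRNP. The SF3A and SF3B subunits of the U2 snRNP clamp it at the branch point. SR proteins bind mainly exonic sequences and promote the use of nearby splice sites. The hnRNPs coat nascent RNA and often act against SR proteins. In blood, SF3B1, U2AF1 and SRSF2 are known as recurrent sites of mutation in human myelodysplastic syndromes, which arise in stem cells.

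AhR and its partner ARNT bind DNA at a short core, and the promoters of 3 members show how that core lies near start sites. Snrpd3 and Snrpa1 had the smallest unadjusted p-values of the members with a mean above WT and a promoter in the RefSeq table used. Hnrnpm is an hnRNP gene with a mean below WT, but not the one with the smallest unadjusted p. Hnrnpa3 and Srsf11, also below WT, had smaller unadjusted p-values by limma (0.224 each, against 0.262). Each line runs from 250 bases before the start site to 50 after it, on the gene's strand, from RefSeq on GRCm38.p6. Capitals mark GCGTG, or its reverse complement CACGC.
Snrpd3, chr10:75517792-75518091, plus strand: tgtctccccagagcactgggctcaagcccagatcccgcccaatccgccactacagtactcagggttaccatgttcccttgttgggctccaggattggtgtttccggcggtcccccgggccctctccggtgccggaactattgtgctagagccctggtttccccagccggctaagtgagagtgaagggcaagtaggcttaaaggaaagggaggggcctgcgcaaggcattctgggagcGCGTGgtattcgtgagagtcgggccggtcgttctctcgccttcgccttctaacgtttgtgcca
Snrpa1, chr7:66060086-66060385, plus strand: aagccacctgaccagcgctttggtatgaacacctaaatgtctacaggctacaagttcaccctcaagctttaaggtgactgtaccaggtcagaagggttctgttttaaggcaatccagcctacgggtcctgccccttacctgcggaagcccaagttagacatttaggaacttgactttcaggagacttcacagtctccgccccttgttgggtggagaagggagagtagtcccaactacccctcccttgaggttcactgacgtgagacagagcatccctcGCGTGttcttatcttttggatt
Hnrnpm, chr17:33685409-33685708, minus strand: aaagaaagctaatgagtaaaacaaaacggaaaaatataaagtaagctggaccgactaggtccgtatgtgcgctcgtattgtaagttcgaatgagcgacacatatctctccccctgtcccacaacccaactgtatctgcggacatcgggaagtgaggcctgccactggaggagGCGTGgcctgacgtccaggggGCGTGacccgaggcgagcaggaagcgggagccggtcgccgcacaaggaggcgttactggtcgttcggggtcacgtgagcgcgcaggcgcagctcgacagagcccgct
The GCGTG of Snrpd3 begins 13 bases before the start site, that of Snrpa1 28 bases after it, and the pair of Hnrnpm 78 and 57 bases before it. Of 43 members matched in the promoter table, 27 (62.8%) held the letters on either strand in at least 1 promoter, against 9500 of 27025 genes (35.2%). All 3 promoters shown held them, so they do not stand for the members as a whole. The Hnrnpa3 promoter held 0 matches, and those of Srsf11 held 2 and 1. The median GC content was 61% in the 57 promoters of members and 52.7% in all 32851. The median count of the letters CG, which GCGTG contains, was 26 in member promoters and 7 in all. The part of base composition in the share of matches was not tested. A match is a description of letters in a window, not of binding.

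The signal of each array was judged against a background mark. For it, the probe sets of 1108 olfactory receptors, genes not used in blood, were taken, and their 95th percentile on an array was 33.8 to 42.8. The share of the 25335 tested probe sets above it was 30.7% on WT replicate 2 and 34.0 to 44.9% on the other arrays. Of 12 measured HSC markers, all exceeded the mark on at least 1 array and Kit, Hlf, Meis1, Gata2 and Cd34 on all 7. These markers averaged a log2 level of 5.85 on WT replicate 2, against 7.23, 7.92 and 7.85 on the other WT arrays and 6.59 to 7.19 in Ahr-KO. Granulocyte and monocyte markers averaged 9.42 on WT replicate 2, against 4.85, 7.83 and 7.04 on the other WT arrays and 7.53 to 9.55 in Ahr-KO. By genotype, all 12 granulocyte and monocyte markers and 4 of the 12 HSC markers had a mean above WT, where 48.4% of all genes did. So did 4 of 5 mast cell and basophil and 5 of 7 T and NK markers. The counts were 2 of 5 for erythroid, 2 of 5 for stromal and endothelial and 1 of 4 for megakaryocyte markers. They were 0 of 7 for B lymphoid and 0 of 5 for macrophage and dendritic markers. The part of cell mix in the members' differences between genotypes was not tested. Markers of other cells were present too. Of 12 granulocyte and monocyte markers, 6 exceeded the mark on all 7 arrays, as did the T and NK markers Cd3e and Nkg7, 2 of 7 measured. The T and NK markers Cd3g, Cd4 and Cd8a, 3 of the 7, were above it on no array. Of 7 B lymphoid markers, 4 were above it on no array, and the other 3 on at least 1. Of 5 macrophage and dendritic markers, 2 were above it on no array, and the other 3 on at least 1.

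Splicing genes gave clear signal in these stem cells. Of the 50 members, 38 (76.0%) exceeded the background mark on all 7 arrays, 11 on some arrays, and the pseudogene Hnrnpa1l2-ps2 on none, where 13.7% of all genes exceeded it on all 7. All 6 Sm core genes, 7 of 9 SF3A and SF3B genes, 8 of 10 SR genes and 13 of 19 hnRNP genes did so. The median residual SD of a member, its spread between arrays of 1 genotype, was 0.70 log2 units, and 0.51 for the 38 members above the mark throughout. For all genes the median was 0.93, and for the 3039 genes above the mark throughout 0.66. The steadiest members were Snrpg, at 0.16, and Hnrnpk, at 0.19.

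No member passed the test between genotypes. Differences are Ahr-KO minus WT on the log2(intensity + 1) scale, each with its moderated standard error (SE) from limma. The added 1 shrinks ratios of dim probe sets, but values near the background also vary more and can give large differences. The median residual SD was 1.38 for the 12 members not above the mark on all arrays, against 0.51 for the 38 that were. By limma with Benjamini-Hochberg adjustment over 25335 probe sets, 0 of the 50 members had an adjusted p under 0.05, as did 0 probe sets in all (0%), and the lowest adjusted p of a member was 0.963. The count of members with an unadjusted p under 0.05 was also 0, where 4.21% of all tested probe sets reached it (1.99% with Ahr-KO higher and 2.22% lower). For 1 member, U2af2, all values of 1 genotype lay above all values of the other, against 5.74% of all tested probe sets (2.61% with Ahr-KO higher and 3.13% with Ahr-KO lower). Differences ran from -1.76 to 1.50 with a median of 0.06, where the median over all genes was -0.03. Of the 50, 30 were above 0 and 20 below, but after quantile normalization, and likewise without WT replicate 2, 24 were above 0. The median SE was 0.58, and 7 of the 50 members had a difference beyond 1 log2 unit in either direction, against 5253 of 22180 genes.

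**Figure D1:**
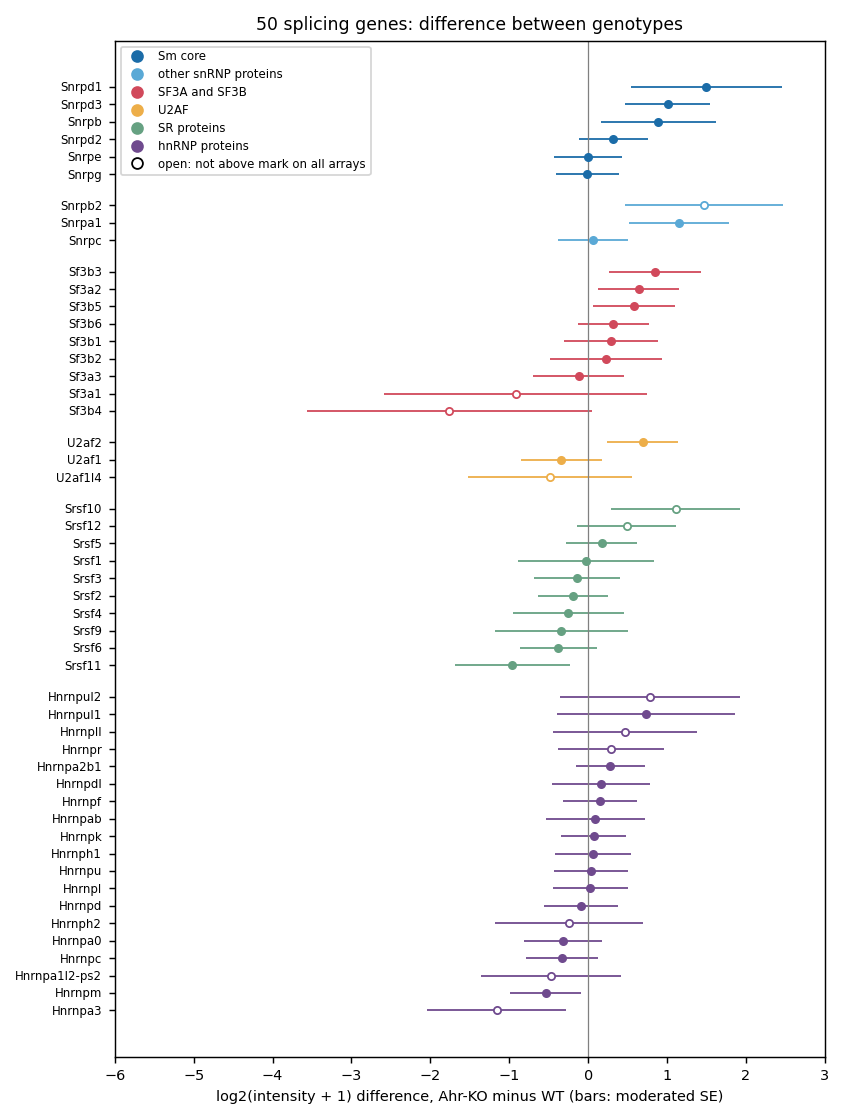
Differences between genotypes for the 50 members, grouped by role. The x axis is the Ahr-KO minus WT difference of log2(intensity + 1), points are limma estimates and bars their moderated SE; open points are members not above the background mark on all arrays. The estimates run from -1.76 (Sf3b4) to 1.50 (Snrpd1), and 0 of 50 pass an adjusted p of 0.05.

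Sm proteins form the ring around most spliceosomal snRNAs. Snrpd1, Snrpd3, Snrpb and Snrpd2 had means above WT, and Snrpe and Snrpg stood at 0.00 and -0.01. Snrpd3, the member with the smallest unadjusted p, had intensities of 2074, 1015 and 1428 on the knockout arrays and 1355, 727, 550 and 491 on the wild-type arrays. Ahr-KO replicates 1 and 3 lay above every WT array, and WT replicate 1 lay above Ahr-KO replicate 2. The log2 difference was 1.01 ± 0.54 (SE, 95% interval -0.23 to 2.24, limma adjusted p = 0.963), and it ran from 0.74 to 1.31 over the fits that each lacked 1 array. WT replicate 1 was the only WT array above any Ahr-KO array, so the groups could not overlap without it. In that fit 9.83% of all tested probe sets did not overlap. The unadjusted p of Snrpd3 by limma was then under 0.05, as for 3.93% of all tested probe sets, but its adjusted p did not pass the threshold.

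A single array set the size of the difference for Snrpd1 and for Snrpb. Snrpd1 stood at 6837, 592 and 544 on the knockout arrays and at 793, 258, 332 and 662 on the wild-type arrays. Its difference of 1.50 ± 0.96 (SE) was 0.30 without Ahr-KO replicate 1. A second Snrpd1 probe set did not share that peak: it read 434, 278 and 291 on the knockout arrays and 386, 164, 166 and 192 on the wild-type arrays, a difference of 0.63 ± 0.50 (SE). Snrpb, which encodes SmB, stood at 521, 734 and 4102 on the knockout arrays and 584, 588, 709 and 640 on the wild-type arrays. Its difference of 0.89 ± 0.73 (SE) was -0.02 without Ahr-KO replicate 3.

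The other Sm genes varied less between arrays. Snrpd2 read 1262, 1411 and 1138 on the knockout arrays and 1340, 722, 919 and 1182 on the wild-type arrays, a difference of 0.32 ± 0.44 (SE), or 0.16 without WT replicate 2. Snrpg read 1866, 2341 and 2322 on the knockout arrays against 2408, 2327, 1996 and 1990 on the wild-type arrays. All 7 Snrpg values fell in this narrow band and the groups overlapped fully. The difference was -0.01 ± 0.40 (SE, 95% interval -0.94 to 0.93). Snrpe read 351, 529 and 388 on the knockout arrays, within the span of 351 to 515 of the WT arrays except for Ahr-KO replicate 2. Because the moderated SE is drawn toward the spread of all probe sets, the Snrpg interval is wider than its 7 values alone would give.

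Among snRNP proteins outside the Sm ring, Snrpa1 and Snrpb2 encode partner proteins of the U2 snRNP, and Snrpc encodes the U1 protein that helps read the 5′ splice site. Snrpa1 stood at 764, 336 and 678 on the knockout arrays and at 265, 267, 108 and 515 on the wild-type arrays. WT replicate 4 lay above Ahr-KO replicate 2, and the other WT arrays lay below all Ahr-KO arrays. Its difference of 1.15 ± 0.63 (SE, 95% interval -0.31 to 2.62, limma adjusted p = 0.963) became 0.75 without WT replicate 3. Without WT replicate 4, the only WT array above any Ahr-KO array, the groups could not overlap. In that fit 10.2% of all tested probe sets did not overlap. The unadjusted p of Snrpa1 by limma was then under 0.05, as for 4.45% of all tested probe sets. Snrpb2 stood at 121, 458 and 190 against 107, 11.9, 171 and 166. WT replicate 2, under the background mark, was far below the rest. The difference was 1.47 (95% interval -0.84 to 3.77), and 0.59 without that array. Snrpc read 228, 271 and 375 against 356, 233, 291 and 235, a difference of 0.06 ± 0.44 (SE) that was below 0 after quantile normalization.

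**Figure D2:**
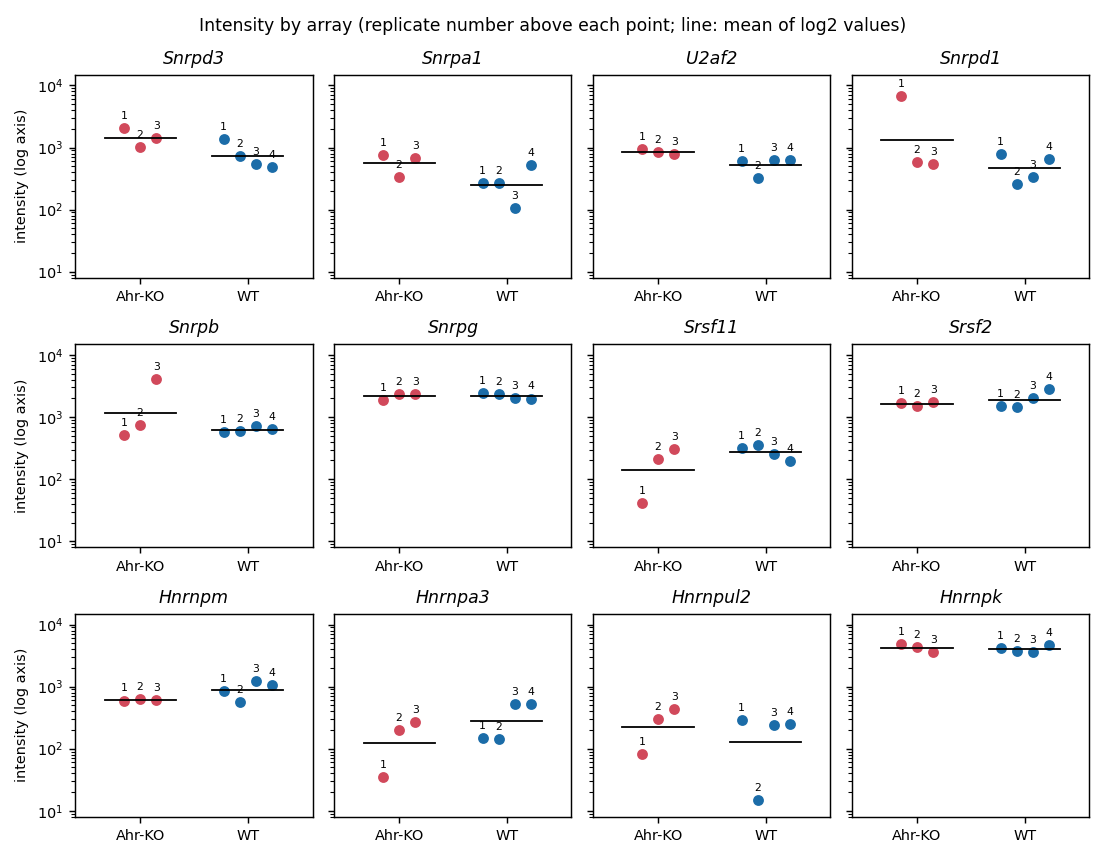
Intensity of 12 members on each array, on a log axis. Points are arrays, with the replicate number above each, Ahr-KO in red and WT in blue, and lines are the means of the log2 values. U2af2 is the member whose groups do not overlap; Snrpd1 (6837 on Ahr-KO replicate 1), Snrpb (4102 on Ahr-KO replicate 3) and Hnrnpul2 (15.1 on WT replicate 2) each have 1 array far from the rest; Snrpg stays within 1866 to 2408 and Hnrnpk within 3563 to 4770.

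SF3A and SF3B subunits anchor the U2 snRNP at the branch point. Of the 9 genes, 6 were above 0 and 3 below, with a median of 0.29 (0.13 after quantile normalization and 0.03 without WT replicate 2), and 0 passed the test. Sf3b3 stood at 192, 207 and 261 on the knockout arrays and at 116, 51.0, 163 and 219 on the wild-type arrays. The difference of 0.85 ± 0.58 (SE) was 0.44 without WT replicate 2. A second Sf3b3 probe set went the other way, at -3.35 ± 1.39 (SE), but it exceeded the background mark on WT replicate 3 alone (111) and was listed at 0 on 3 arrays.

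Sf3a2, the SF3A subunit that contacts the U2 snRNA near the branch point, stood at 1330, 638 and 752 on the knockout arrays and 730, 327, 686 and 562 on the wild-type arrays. Its difference was 0.64 ± 0.51 (SE), or 0.33 without Ahr-KO replicate 1 and 0.39 without WT replicate 2. Sf3b5, a small SF3B subunit, read 1709, 706 and 1252 against 1099, 778, 483 and 850, a difference of 0.58 ± 0.52 (SE) that was 0.29 without Ahr-KO replicate 1 and 0.35 without WT replicate 3. For both genes Ahr-KO replicate 1 was the highest of the 7 arrays. Sf3b6, which can be crosslinked to the branch point adenosine, read 518, 889 and 1131 against 587, 609, 745 and 655. Ahr-KO replicate 1 was its lowest array, and the difference of 0.32 ± 0.45 (SE) was 0.63 without that array and 0.07 without Ahr-KO replicate 3.

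Sf3b4 had no usable difference. It stood at 45.6, 0.05 and 0 on the knockout arrays and at 55.3, 7.76, 0.01 and 45.9 on the wild-type arrays, above the mark on 3 arrays in all, and its difference of -1.76 ± 1.81 (SE) was -0.52 with a pseudocount of 16. Sf3b1, the large subunit, falls outside the rule for named genes and was added for its place in human disease. It stood at 787, 411 and 215 on the knockout arrays and 373, 190, 467 and 392 on the wild-type arrays. The groups overlapped, with the highest array and the next to lowest both Ahr-KO, and the difference was 0.29 ± 0.59 (SE), or -0.18 without Ahr-KO replicate 1.

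U2AF is a heterodimer in which U2af2 binds the polypyrimidine tract and U2af1 the AG at the intron's end. U2af2 was the member whose values did not overlap, at 933, 852 and 793 on the knockout arrays and 616, 322, 623 and 639 on the wild-type arrays. Every Ahr-KO array lay above every WT array, and 3 of the 4 WT arrays were nearly equal while WT replicate 2 was lower. The log2 means were 9.75 ± 0.12 (SD, n = 3) and 9.05 ± 0.48 (SD, n = 4), a difference of 0.69 ± 0.45 (SE, 95% interval -0.36 to 1.74, limma adjusted p = 0.963). The difference was 0.45 without WT replicate 2.

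U2af1 had its mean on the other side. It read 422, 274 and 362 on the knockout arrays and 819, 297, 474 and 327 on the wild-type arrays. WT replicate 1 was the highest array and the rest were mixed; the difference was -0.34 ± 0.51 (SE), or -0.05 without that array. U2af1l4, a U2af1 relative, stood at 51.2, 224 and 127 against 412, 31.5, 98.1 and 483. The WT arrays spanned the whole range of Ahr-KO, and the difference of -0.48 ± 1.04 (SE) was above 0 without WT replicate 4 or Ahr-KO replicate 1.

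SR proteins carry an arginine/serine-rich domain whose phosphorylation controls where they sit in the nucleus. Of the 10 genes, 3 were above 0 and 7 below, with a median of -0.17, and 0 passed the test. The median was -0.27 after quantile normalization, -0.05 without Ahr-KO replicate 1 and -0.02 without WT replicate 4. Srsf2, an activator of exon inclusion, stood at 1660, 1526 and 1754 on the knockout arrays and 1493, 1463, 2015 and 2821 on the wild-type arrays. The Ahr-KO arrays lay close together inside the WT range. Its difference of -0.19 ± 0.44 (SE) was 0.00 without WT replicate 4. Srsf5 read 2332, 1128 and 1982 against 1422, 1382, 1622 and 1775, a difference of 0.17 ± 0.45 (SE), or -0.04 without Ahr-KO replicate 1.

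Srsf10, known as a splicing repressor when dephosphorylated, stood at 120, 166 and 204 on the knockout arrays and at 65.3, 158, 16.8 and 161 on the wild-type arrays. WT replicate 3 was under the background mark, and WT replicates 2 and 4 lay between the Ahr-KO values. The difference of 1.11 ± 0.82 (SE) was 0.43 without WT replicate 3. Srsf11 stood at 41.2, 214 and 311 against 314, 358, 257 and 198. Its difference of -0.96 ± 0.73 (SE) was -0.09 without Ahr-KO replicate 1, the lowest array. Srsf6 read 937, 960 and 698 against 1086, 1982, 744 and 957, a difference of -0.38 ± 0.49 (SE), and -0.10 once WT replicate 2, the highest array, was left out. Its second probe set gave 0.99 ± 0.85 (SE), with 4557 on Ahr-KO replicate 2 and 295 to 899 on the other 6 arrays. Srsf12 exceeded the mark on 1 array, Ahr-KO replicate 1 at 50.7, with 9.36 to 34.4 elsewhere. The remaining Srsf1, Srsf3, Srsf4 and Srsf9 had differences of -0.03, -0.14, -0.25 and -0.34.

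The hnRNPs bind nascent transcripts and act in splicing, export and RNA stability. Of the 19 genes, 12 were above 0 and 7 below with a median of 0.06, but 8 were above 0 after quantile normalization and 5 without WT replicate 2. None passed the test. Hnrnpk, which binds C-rich sequence, stood at 4770, 4372 and 3606 on the knockout arrays and 4146, 3753, 3563 and 4719 on the wild-type arrays. The groups overlapped fully, with a difference of 0.07 ± 0.41 (SE, 95% interval -0.87 to 1.01). The other Hnrnpk probe sets gave 0.16 ± 0.45 (SE) and 0.47 ± 0.45 (SE). Hnrnpf, which binds G-rich tracts, read 1633, 1748 and 1817 against 2051, 879, 1844 and 1768. WT replicate 2 stood apart below the other 6 arrays, and the difference of 0.15 ± 0.47 (SE) was -0.12 without it.

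Hnrnpm had the tightest Ahr-KO values of the hnRNPs named, at 597, 626 and 604, against 840, 571, 1214 and 1071 on the wild-type arrays. WT replicate 2 lay just below the Ahr-KO arrays and the other WT arrays above them. The difference of -0.54 ± 0.45 (SE, limma adjusted p = 0.963) became -0.76 without WT replicate 2. The groups could not overlap without that array, and in that fit 10.5% of all tested probe sets did not overlap. Hnrnpc, whose tetramers package nascent RNA, read 315, 385 and 314 against 467, 257, 487 and 543. Its pattern was like that of Hnrnpm, with WT replicate 2 lowest and the other WT arrays above all Ahr-KO arrays, and its difference of -0.33 ± 0.46 (SE) was -0.56 without that array.

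Hnrnpa3 and Hnrnpul2 each rested on 1 low array. Hnrnpa3 stood at 34.8, 201 and 270 on the knockout arrays and 151, 143, 531 and 521 on the wild-type arrays, and its difference of -1.16 ± 0.88 (SE) was -0.26 without Ahr-KO replicate 1. Hnrnpul2, a relative of the nuclear scaffold protein hnRNP U, stood at 81.0, 304 and 443 against 288, 15.1, 244 and 247. Its difference of 0.78 ± 1.14 (SE) was -0.22 without WT replicate 2. The remaining 13 hnRNP genes had differences from -0.47 for Hnrnpa1l2-ps2 to 0.73 for Hnrnpul1, which read 58.8 on WT replicate 2 and 672 to 1648 elsewhere.

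WT replicate 2 was the array on which splicing genes were low. Each member's deviation from its own mean over the 7 arrays had a median of -0.41 log2 units there and -0.01 to 0.15 on the others. For all genes the median deviation on WT replicate 2 was -0.11. The median was -0.95 for SF3A and SF3B genes, -1.02 for U2AF, -0.44 for Sm core and -0.43 for hnRNP genes, while that of the SR genes was 0.15. Of the 38 members above the background mark on all arrays, 14 (36.8%) had their lowest value on WT replicate 2, where 18.8% of the 3039 genes above the mark throughout did. This array also had the fewest probe sets above the mark, the lowest HSC marker level and, among WT arrays, the highest granulocyte and monocyte level. The part of each of these in the low splicing values was not tested.

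**Figure D3:**
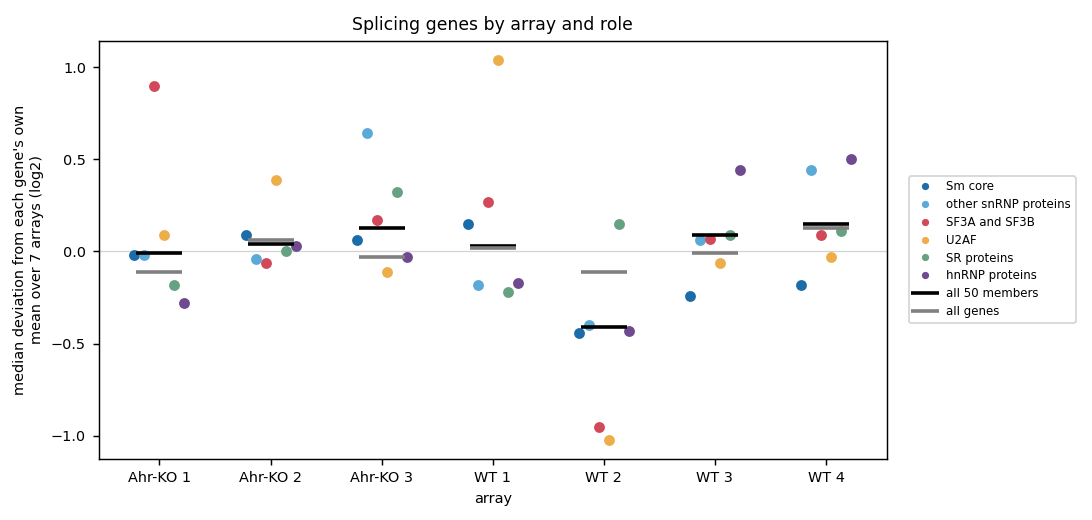
Median deviation of each role's genes from their own mean over 7 arrays, in log2 units, by array. Points are roles, black lines all 50 members and grey lines all genes. On WT replicate 2 the member median is -0.41 and every role except the SR proteins (0.15) lies below 0.

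Several probe sets of 1 gene gave a check on the values. Of the 50 members, 12 had more than 1 probe set of their own, with 16 further probe sets. Their difference had the same sign as that of the chosen probe set for 10 and the other sign for 6. None had an adjusted p under 0.05 by limma. An unadjusted p under 0.05 by limma was reached by 1, the dim Sf3b3 probe set, against 4.21% of all tested probe sets. The groups of 1 did not overlap, against 5.74%. The last was a Hnrnpf probe set at 241, 58.4 and 69.8 on the knockout arrays and 48.4, 52.2, 41.1 and 52.3 on the wild-type arrays. Its difference was 1.03 ± 0.58 (SE), where the chosen Hnrnpf probe set gave 0.15. The other further Hnrnpf probe sets, all brighter, gave -0.73 ± 0.66, 0.06 ± 0.50 and 0.11 ± 0.50 (SE). The second Hnrnpul1 probe set stood at 622, 292 and 805 against 241, 300, 224 and 207, a difference of 1.13 ± 0.50 (SE), and it did not share the low value of the first on WT replicate 2.

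**Figure D4:**
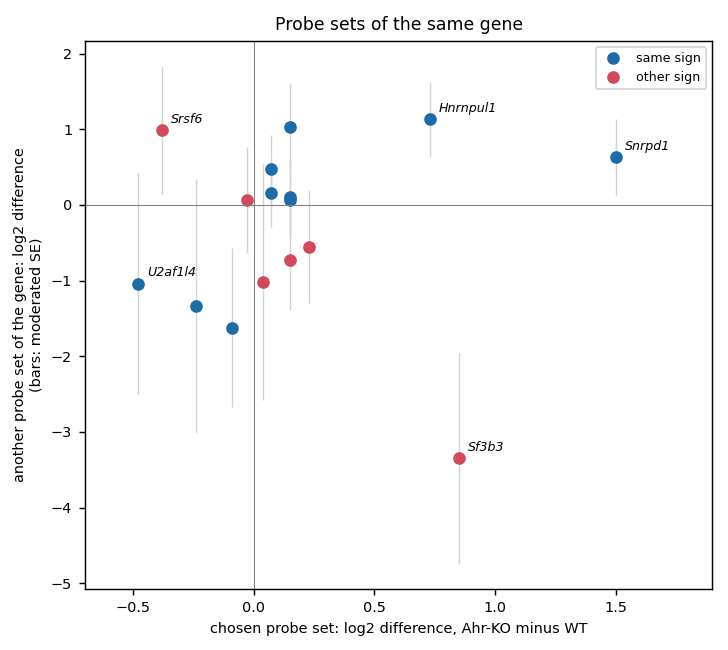
Ahr-KO minus WT log2 difference of 16 further probe sets (y axis, bars moderated SE) against that of the chosen probe set of the same gene (x axis). Blue points share the sign (10) and red points do not (6); Sf3b3 is the farthest apart, at 0.85 and -3.35.

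Other splicing genes, from a list of 103 that holds further snRNP, tri-snRNP, helicase, kinase and exon junction genes, were measured for 95. Of these 53 were above 0 and 42 below, with a median of 0.10, and 0 passed an adjusted p of 0.05 by limma. At an unadjusted p under 0.05 there were 9 (9.47%), 6 higher and 3 lower, against 4.21% of all tested probe sets, and 7 (7.37%) did not overlap, against 5.74%. The 4 genes that follow were picked from the 95 for the smallest unadjusted p, so their sizes are those of the top of the list. Srpk2, a kinase that phosphorylates SR proteins, stood at 275, 216 and 339 on the knockout arrays and 1.52, 7.25, 12.9 and 110 on the wild-type arrays, a difference of 4.35 ± 1.15 (SE, limma adjusted p = 0.963). Cdc5l, a core protein of the active spliceosome, stood at 215, 313 and 241 against 24.8, 1.64, 11.4 and 80.1, a difference of 3.97 ± 1.06 (SE). For both genes every Ahr-KO array lay above every WT array, of which only WT replicate 4 exceeded the background mark. With a pseudocount of 16 their differences were 3.05 and 2.86. As the mean over the gene's probe sets, the Cdc5l difference was 2.60.

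Rbm8a and Dhx16 went the other way. Rbm8a, a subunit of the exon junction complex left on spliced mRNA, stood at 105, 82.7 and 82.3 on the knockout arrays and 193, 358, 295 and 161 on the wild-type arrays, all above the background mark. Its difference was -1.41 ± 0.47 (SE, limma adjusted p = 0.963), and it ran from -1.60 to -1.22 over the fits that each lacked 1 array. Dhx16, a helicase that acts before the first splicing step, stood at 17.4, 39.8 and 0.2 against 137, 181, 53.4 and 88.7. The groups did not overlap for either gene. The Dhx16 difference of -3.44 ± 1.16 (SE) was -1.94 without Ahr-KO replicate 3 and -1.97 with a pseudocount of 16.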

How the data were processed

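The authors deposited 1 linear intensity per probe set and array, on 7 single-channel arrays. The submitters' processing notes name Affymetrix Expression Console. For the summarization, the background correction and the normalization it applied, nothing is stated (not given in the sources used here). Of 41155 rows, the platform annotation lists 25335, of which 23521 name 1 gene; the 15820 unlisted rows were left out of the main test. Intensities were transformed as log2(intensity + 1). Genotype was the only term of a limma fit (lmFit and eBayes; limma 3.58.1 under R 4.3.3) over the 25335 probe sets, with two-sided p-values and Benjamini-Hochberg adjustment. The fit was tested on simulated data with the means and spread of these arrays and 200 changed probe sets. At an adjusted p under 0.05 by limma it recovered 0.0% of 4-fold, 46.5% of 16-fold and 76.5% of 64-fold changes. Every member difference (-1.76 to 1.50 log2 units) was smaller than 4-fold, so a member could hardly have passed. No detection call came with the intensities, so a background mark was taken from olfactory receptor probe sets. Arrays have no read depth: their number limits the precision. Probe set levels were not compared between genes.

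The members and lists were chosen with earlier results of these data known. Named genes were, in each role, up to 4 members with the smallest unadjusted p and up to 2 with the highest mean, any member whose groups did not overlap, and the 4 other splicing genes with the smallest unadjusted p. Symbols and promoters came from RefSeq (GRCm38.p6); all 50 members matched by Entrez ID and 43 had a promoter. Results were recomputed without each array, with a replicate block, after median centring or quantile normalization, and with a pseudocount of 16, a filter on dim probe sets, a trended and robust prior, array weights, all rows tested, the mean over a gene's probe sets, current symbols and, added after seeing the data, members above the mark on all arrays.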

Additional observations from a re-analysis of the deposited data

Results flagged for a closer look

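In 5 members, 1 WT array lay far from the other 3 by Dixon's criterion at the 95% level on log2 values, and in all 5 that array was WT replicate 2. U2af2 stood at 322 there and at 616 to 639 on the other WT arrays (gap over range 0.947). Hnrnpul2 stood at 15.1 against 244 to 288 (0.942), and Sf3b2, an SF3B subunit, at 132 against 680 to 815 (0.900). Srsf9, an SR protein gene, stood at 82.3 against 516 to 712 (0.851). Hnrnpl, which binds CA-rich RNA, was the member where WT replicate 2 was high, at 835 against 526 to 553 (0.888). Without WT replicate 2 the Sf3b2 difference turned from 0.23 to -0.39 and the Srsf9 difference went from -0.34 to -1.07. Chance flags about 1 in 20 groups of this size, and 50 members were examined. The share flagged over all genes was not taken, so the count cannot be read as particular to splicing genes.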

How the results depend on the processing

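No member passed an adjusted p of 0.05 by limma under any alternative run, and no probe set of the whole table did. The count of members at an unadjusted p under 0.05 was 0 to 1 when single arrays were left out (3.77 to 5.29% of all tested probe sets). It was 1 with a trended and robust prior (Snrpd3), where 3.94% of all tested probe sets reached it. The count of members whose groups do not overlap was 1 to 8 when single arrays were left out, where fewer arrays make separation easier (9.27 to 14.5% of all tested probe sets). It was 2 after quantile normalization (5.21% of all tested probe sets) and 2 after median centring (5.45%). For the mean over a gene's probe sets it was also 2, and no share over all genes was taken there. The member median was -0.03 after quantile normalization and -0.02 without WT replicate 2, and 0.06 to 0.15 under the other alternatives. With the replicate number as a block it was 0.15, with 31 members above 0 and 0 past an adjusted p of 0.05. WT replicate 4 has no Ahr-KO array of its number, so these estimates equal those without WT replicate 4. Correlations of same-numbered arrays' deviations were 0.0227, -0.0646 and 0.0101, and those of other pairs -0.0838 to 0.123. No pairing by number was seen, but such values cannot show that arrays were prepared separately. Of 54 named or member genes, 29 changed sign under at least 1 alternative. The cause of these changes was not tested. With 3 and 4 arrays, missing the threshold sets no limit on differences of the sizes estimated for the members, and dim probe sets give sizes that depend on the pseudocount.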
